A study of Mus musculus with 12 samples.

Results

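The genes described here are 47 genes of the G2 phase and of mitosis, chosen as a named list of kinases, cyclins, kinetochore and checkpoint proteins, condensin subunits, spindle motors and cytokinesis factors. All 47 were present among the 53762 gene symbols of the count table, and all 47 were among the 16945 genes with enough counts to be tested. RNA had been sequenced from mouse spleen T cells after 48 or 24 h of co-culture with partner cells named Res in the labels, which carried shFabp7 (a short hairpin RNA against Fabp7, a fatty acid binding protein) or a control. There were 4 groups of 3 libraries, 12 in all: T cells with the shFabp7 partner for 48 h, with the control partner for 48 h, with the shFabp7 partner for 24 h, and with the control partner for 24 h. Every group shared the same medium (RPMI-1640 with serum and antibiotics). The labels give no strain, age or genotype of the T cell donors, and they do not say what the control construct was, how the T cells were activated or how they were separated from the partner cells. Nothing in them says that the replicates of a group were separate cultures or mice. Each p-value below is therefore set against the spread of these libraries, which may be technical. The stated purpose was to find the genes that T cells express differently beside shFabp7 and control Res cells.

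A naive T cell rests outside the cell cycle, and after stimulation it grows and then divides repeatedly. Transcripts of mitotic genes accumulate late in each cycle. They are repressed in resting and G1 cells and are switched on in G2 by the MuvB complex together with B-Myb (Mybl2) and FoxM1. These factors act through the short CHR element near the start site, and CCAAT elements near it also take part in the control. Cyclin B with Cdk1 then drives entry into mitosis, the kinetochore and the checkpoint hold the chromosomes until they are attached, and the anaphase-promoting complex (APC/C) with Cdc20 releases them.

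Library depth lay between 32.0 and 40.6 M counts (M, 10 to the power of 6). No library repeated another: counts of replicates of a group differed by 4.23 to 14.0 in chi-square per degree of freedom, where sampling noise alone gives about 1. The 2 largest values, 13.5 and 14.0, belonged to the pairs that included control 48 h replicate 1. Control 24 h replicates 2 and 3 differed by nearly as much (13.2). Summed levels of 10 T cell marker genes were 2457 to 2533, 2493 to 2582, 3199.6 to 3367 and 3295 to 3309 CPM (counts scaled to a common library size) at shFabp7 48 h, control 48 h, shFabp7 24 h and control 24 h. The members of that list moved apart: with time 2 of 10 were called higher and 7 lower with either partner, Cd8a at -1.29 ± 0.05 with the shFabp7 partner and -1.13 ± 0.05 with the control partner and Cd4 at 0.39 ± 0.05 and 0.29 ± 0.05. Of the lists for other cell types the endothelial one was the highest, at 64.3 to 71.7 CPM at shFabp7 48 h, 77.3 to 82.4 CPM at control 48 h, 85.7 to 89.3 CPM at shFabp7 24 h and 100.2 to 116 CPM at control 24 h. Nearly all of it was Pecam1, and Cdh5 had at most 0.12 CPM in any library. With time and the control partner Pecam1 and Kdr were called lower (log2 change -0.38 ± 0.06 and -2.94 ± 0.27). Tek did not pass (0.37 ± 0.74). The 7 B cell markers summed to 19.9 to 24.4 CPM at 48 h and 12.4 to 15.5 CPM at 24 h. For the 6 dendritic cell markers the sums were 14.6 to 16.5 and 6.85 to 8.39 CPM. With time and the control partner Zbtb46 of that list was called higher (1.33 ± 0.10) and Flt3 lower (-0.62 ± 0.22). The 7 monocyte and macrophage markers summed to 13.5 to 16.8 CPM at 48 h and 11.3 to 15.3 CPM at 24 h. The 6 fibroblast markers summed to 3.74 to 4.44 CPM at 48 h and 1.27 to 1.79 CPM at 24 h, with Col3a1 at 0 in all but the control 48 h group. With time and the control partner Col1a1 was called higher (2.46 ± 0.30). Col1a2 and Lum did not pass (0.56 ± 0.27 and 0.81 ± 0.55). The 7 neutrophil markers summed to 1.71 to 2.91 CPM at shFabp7 48 h and 3.42 to 8.20 CPM at control 48 h, and the 7 epithelial markers, with Krt14 at 0 in every group, to 4.16 to 5.34 CPM at shFabp7 48 h and 6.28 to 7.09 CPM at control 48 h. Among the epithelial markers Cdh1 was called lower beside the shFabp7 partner at 48 h (-0.74 ± 0.19). Epcam and Krt18 did not pass (-0.40 ± 0.17 and -0.43 ± 0.37). The part of these lists in the results was not tested. Fabp7 itself had 0 counts in the shFabp7 libraries at either time, 1 to 3 in control 48 h libraries and 0 in control 24 h libraries. These are T cell libraries, so this says nothing of the knockdown in the partner cells.

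**Figure D1:**
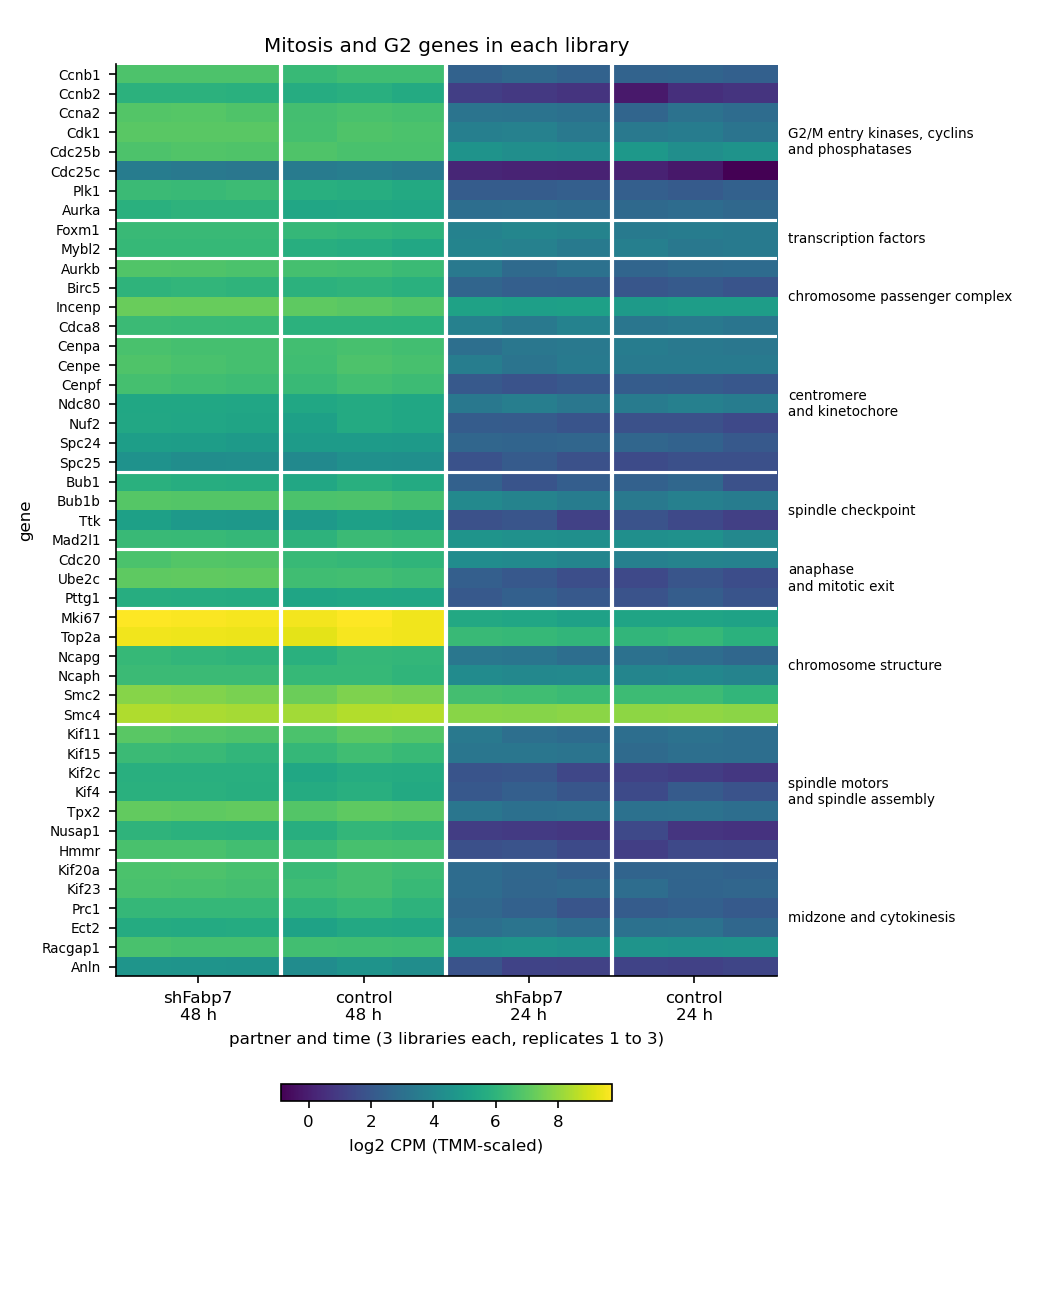
Level of each of the 47 genes in each of the 12 libraries, as log2 CPM with edgeR's TMM scaling (colour), with genes in rows by role and groups in columns. The 6 libraries at 48 h stand above the 6 at 24 h in every row, most narrowly for Smc4.

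All 47 genes rose between 24 and 48 h of co-culture with either partner. Read counts were scaled to CPM with edgeR's TMM factors, and edgeR's quasi-likelihood test with Benjamini-Hochberg adjustment over all genes tested was read at an adjusted p of 0.05. With the shFabp7 partner 47 of 47 rose, where 35.9% of all genes tested were called higher at 48 h and 30.2% lower (66.1% in either direction). With the control partner 47 of 47 rose too, where 35.8% of all genes were called higher and 32.0% lower (67.7% in either direction). The median log2 change was 3.29 (9.76-fold) with the shFabp7 partner and 3.39 (10.5-fold) with the control partner, beside medians of 0.06 and 0.04 over all genes tested. The 48 h and 24 h libraries did not overlap for any of the 47 genes, where 38.5% (shFabp7 partner) and 36.7% (control partner) of all genes were likewise higher at 48 h without overlap. With each partner 46 of the 47 rose at least 2-fold and 31 at least 8-fold.

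As a share of all counts, the 47 genes together took 0.567% ± 0.0212 at shFabp7 48 h, 0.544% ± 0.0373 at control 48 h, 0.0767% ± 0.00329 at shFabp7 24 h and 0.0746% ± 0.00311 at control 24 h (SD, n = 3 each). In bulk RNA, more dividing cells and more RNA per dividing cell cannot be told apart.

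The largest rises belonged to genes of several roles. Ube2c, the ubiquitin-conjugating enzyme that works with the APC/C, had 136, 141 and 135 CPM at shFabp7 48 h and 88.7, 91.2 and 84.1 CPM at control 48 h, against 5.03, 4.12 and 3.13 CPM at shFabp7 24 h and 2.74, 3.76 and 3.04 CPM at control 24 h. Its log2 change was 5.07 ± 0.09 (SE) with the shFabp7 partner and 4.78 ± 0.10 with the control partner (adjusted p = 1.3e-27 and 1.1e-26). Every 48 h library thus stood far above every 24 h library, and the shFabp7 48 h libraries were the highest of all. Ccnb2, a mitotic cyclin that binds Cdk1, had 61.4, 61.2 and 57.7 CPM at shFabp7 48 h and 50.8, 56.3 and 49.2 CPM at control 48 h, with 2.11, 1.81 and 1.62 CPM at shFabp7 24 h and 0.891, 1.47 and 1.65 CPM at control 24 h. That was a log2 rise of 5.02 ± 0.11 with the shFabp7 partner and 5.27 ± 0.11 with the control partner (adjusted p = 2.1e-28 and 1.9e-28).

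Spindle genes were also among the largest. Nusap1, a microtubule-bundling protein of the spindle, had 65.4, 59.9 and 58.0 CPM at shFabp7 48 h and 55.1, 70.8 and 64.9 CPM at control 48 h, beside 2.05, 1.88 and 1.803 CPM at shFabp7 24 h and 2.70, 1.69 and 1.59 CPM at control 24 h. Hmmr, a spindle protein and hyaluronan receptor, had 102, 101 and 92.5 CPM at shFabp7 48 h and 78.5, 98.1 and 97.4 CPM at control 48 h, beside 3.24, 3.52 and 2.82 CPM at shFabp7 24 h and 2.12, 2.78 and 2.67 CPM at control 24 h. For Nusap1 and Hmmr the 2 partners overlapped at 48 h while the 2 times lay far apart. Their log2 rises were 5.00 ± 0.13 and 4.95 ± 0.10 with the shFabp7 partner and 5.01 ± 0.12 and 5.17 ± 0.10 with the control partner. Kif2c, the kinesin that takes tubulin off microtubule ends, had 56.3, 56.0 and 55.6 CPM at shFabp7 48 h and 43.0, 52.0 and 49.8 CPM at control 48 h, against 3.62, 3.89 and 2.58 CPM at shFabp7 24 h and 2.24, 2.04 and 1.76 CPM at control 24 h. Its rise was 4.06 ± 0.10 with the shFabp7 partner and 4.58 ± 0.11 with the control partner, and its 4 groups did not overlap. Cenpf, a large kinetochore protein of late G2, had 97.5, 89.3 and 84.4 CPM at shFabp7 48 h and 79.7, 92.4 and 82.8 CPM at control 48 h, with 4.23, 3.59 and 4.15 CPM at shFabp7 24 h and 4.61, 4.49 and 3.95 CPM at control 24 h. Cenpf rose by 4.50 ± 0.09 on the log2 scale with the shFabp7 partner and by 4.29 ± 0.08 with the control partner.

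Genes of chromosome structure spanned the widest range. Mki67 (Ki-67, the coat protein of mitotic chromosomes) had 846, 803 and 760.2 CPM at shFabp7 48 h and 734, 833 and 723 CPM at control 48 h, against 45.3, 42.6 and 36.6 CPM at shFabp7 24 h and 40.1, 39.6 and 37.8 CPM at control 24 h. Top2a, the topoisomerase that untangles sister DNA, had 716, 711 and 673 CPM at shFabp7 48 h and 633, 758 and 722 CPM at control 48 h, against 78.1, 75.0 and 68.3 CPM at shFabp7 24 h and 69.0, 73.9 and 58.9 CPM at control 24 h. Their log2 rises were 4.28 ± 0.07 and 3.25 ± 0.08 with the shFabp7 partner and 4.28 ± 0.07 and 3.39 ± 0.08 with the control partner, and the partners overlapped at each time. Smc4, the ATPase subunit shared by both condensins, had 353, 328 and 314 CPM at shFabp7 48 h and 303, 360.3 and 368 CPM at control 48 h, beside 228, 224 and 236 CPM at shFabp7 24 h and 241, 248 and 237 CPM at control 24 h. It showed the smallest rise of the 47, 0.53 ± 0.06 with the shFabp7 partner and 0.51 ± 0.06 with the control partner (adjusted p = 1.5e-09 and 3.9e-09), from a 24 h level that was already high. Smc2, its partner ATPase, had 225, 208 and 194 CPM at shFabp7 48 h and 163, 205 and 189 CPM at control 48 h, beside 93.2, 89.4 and 82.4 CPM at shFabp7 24 h and 82.8, 82.5 and 67.9 CPM at control 24 h. Smc2 rose by 1.24 ± 0.09 with the shFabp7 partner and by 1.26 ± 0.09 with the control partner. The other condensin subunits in the list, Ncapg and Ncaph, rose by 2.95 ± 0.10 and 2.20 ± 0.07 with the shFabp7 partner and by 3.18 ± 0.10 and 2.21 ± 0.07 with the control partner.

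**Figure D2:**
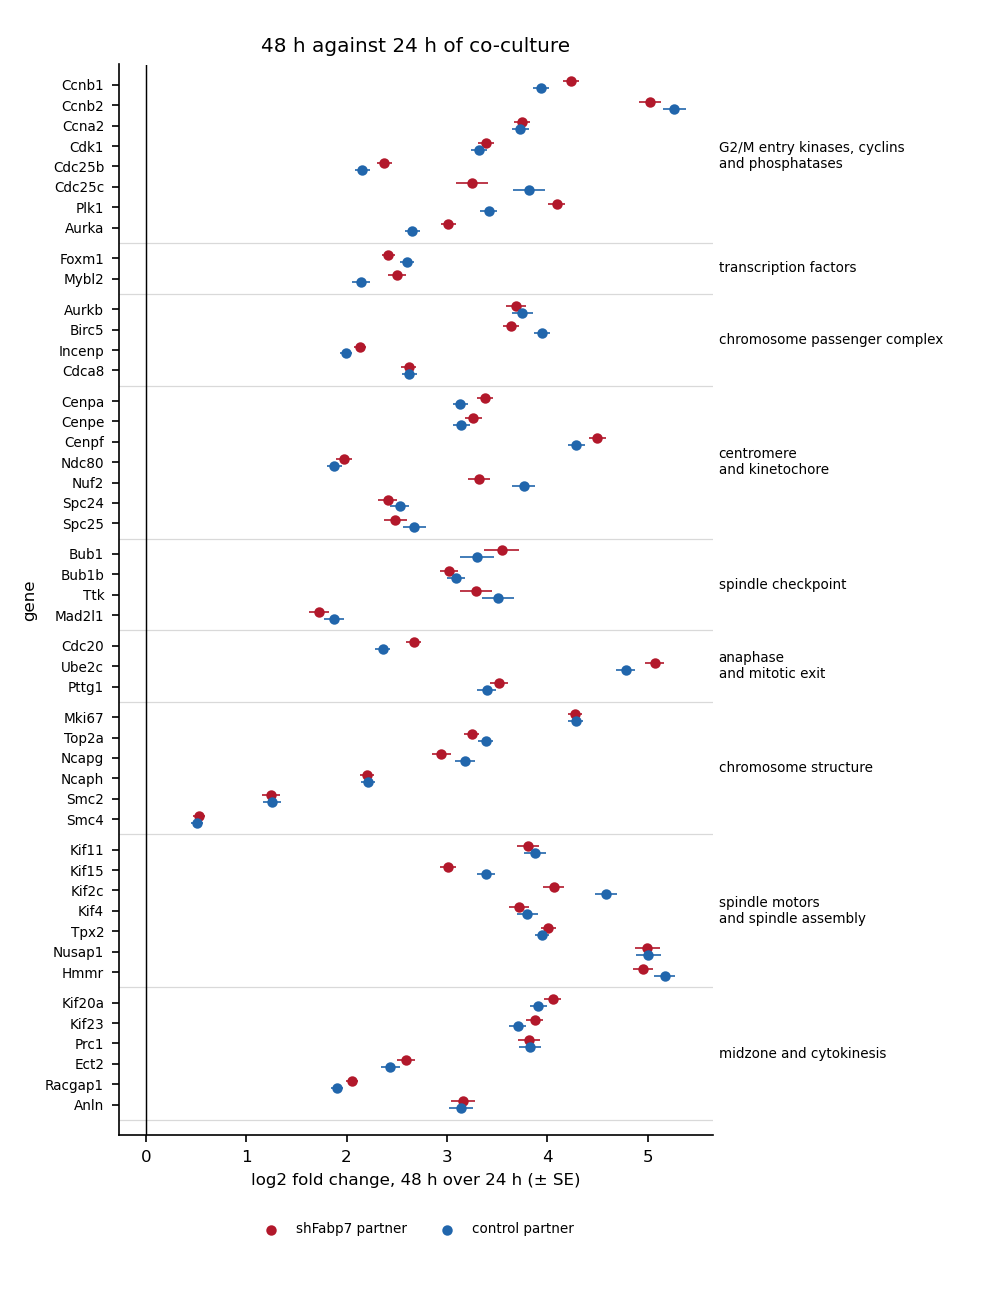
Log2 fold change of each gene, 48 h over 24 h, with its standard error, for the shFabp7 and the control partner. All points lie right of 0, from Smc4 at 0.53 and 0.51 to Ube2c at 5.07 (shFabp7 partner) and Ccnb2 at 5.27 (control partner).

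By role, the median log2 rise with the shFabp7 partner was 4.01 for the 7 spindle motors and assembly factors, 3.57 for the 8 entry kinases, cyclins and phosphatases, 3.52 for the 3 genes of anaphase and exit, and 3.49 for the 6 of the midzone. It was 3.27 for the 7 kinetochore genes, 3.15 for the 4 checkpoint genes, 3.13 for the 4 of the chromosome passenger complex, 2.58 for the 6 of chromosome structure and 2.46 for the 2 transcription factors. With the control partner these medians ran from 2.37 for the transcription factors to 3.95 for the spindle genes. The 2 transcription factors thus had the lowest median of the roles with either partner. Single genes of other roles rose less, among them Smc4 (0.53), Mad2l1 (1.73) and Ndc80 (1.98) with the shFabp7 partner.

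Between genes, levels were compared per kilobase of transcript, taken from GENCODE coding transcripts of build GRCm38. As a mean over the 12 libraries, Top2a stood at 74.0 CPM per kilobase whether its median or its longest transcript was used, and Smc4 at 72.0 and 66.4 CPM per kilobase. Mki67 stood at 77.4 with the median transcript and 40.9 with the longest. Cdc25c, a phosphatase that activates Cdk1, was the lowest at 3.16 with either length. Cenpa, the centromeric histone, and Incenp, the scaffold of the chromosome passenger complex, came out highest with the median transcript (144 and 136 CPM per kilobase), and stood at 36.3 and 26.8 with the longest, so their place in the order rests on the transcript chosen.

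The promoters of the 47 genes were searched for the elements through which late cell cycle genes are known to be controlled. The 47 were chosen by name as G2 and mitosis genes, so the shares describe that choice and are not a result of the co-culture. RefSeq promoter windows (build GRCm38.p6, 250 bases before to 50 after the annotated start) were at hand for 38 of the 47 genes, in 40 windows. Those not matched were Ccna2, Cdc25c, Foxm1, Aurkb, Incenp, Spc24, Smc4, Tpx2 and Kif20a. The CHR element was searched as TTTGAA or TTCGAA and the CCAAT box as CCAAT, each on both strands, and the 2 may overlap. A CHR was found in 31 of the 40 windows (77.5%), in 14.6% of the 14354 windows of genes tested and in 19.2% of all 32851 windows. A CCAAT box was found in 72.5% of the member windows and in 37.7% of those of genes tested. The pair stood together in 67.5% of the member windows, in 5.94% of those of genes tested and in 10.2% of the 49 windows of a DNA replication and S phase list. E2F cores (TTTCGCGC, TTTGGCGC, TTTCCCGC or TTTGCCGC), by contrast, were in 7.50% of the member windows, 28.6% of the replication windows and 3.80% of those of genes tested. A match is a description of these letters and not a shown binding site, and 33 of the 40 windows reach into a transcript of the gene.

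Genes that did not pass between partners at 48 h also held the pair, among them Top2a (-0.01), Kif11 (0.01), Mki67 (0.07) and Cenpf (0.09, log2 change). The window of Mybl2, which rose by 0.57, held neither element. Whether the pair goes with the partner difference was not tested. The 6 promoters below are shown because, of the genes whose window holds a CHR and a CCAAT box, theirs had the largest changes beside the shFabp7 partner at 48 h. Each runs 5′ to 3′ on the gene's strand from 150 bases before the start to 30 after it, with CHR elements and CCAAT boxes on either strand in capitals (a reversed CHR reads TTCAAA and a reversed CCAAT box ATTGG). The windows are chr4:118437314-118437493 on the minus strand for Cdc20, chr2:164769779-164769958 on the plus strand for Ube2c, chr7:122159285-122159464 on the plus strand for Plk1, chr2:172370541-172370720 on the minus strand for Aurka, chr4:124936888-124937067 on the minus strand for Cdca8 and chr10:69352883-69353062 on the minus strand for Cdk1.
Cdc20: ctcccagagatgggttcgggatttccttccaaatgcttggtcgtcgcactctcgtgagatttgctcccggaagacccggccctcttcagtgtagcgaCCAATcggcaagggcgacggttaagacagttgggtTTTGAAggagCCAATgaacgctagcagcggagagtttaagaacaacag
Ube2c: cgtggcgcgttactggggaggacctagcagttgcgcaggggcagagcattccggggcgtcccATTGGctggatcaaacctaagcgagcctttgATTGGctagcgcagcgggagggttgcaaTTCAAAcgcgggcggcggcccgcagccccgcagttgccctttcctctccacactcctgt
Plk1: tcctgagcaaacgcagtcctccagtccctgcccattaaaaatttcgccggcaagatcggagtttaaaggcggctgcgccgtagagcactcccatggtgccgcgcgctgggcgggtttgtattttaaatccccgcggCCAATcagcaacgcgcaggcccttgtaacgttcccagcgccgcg
Aurka: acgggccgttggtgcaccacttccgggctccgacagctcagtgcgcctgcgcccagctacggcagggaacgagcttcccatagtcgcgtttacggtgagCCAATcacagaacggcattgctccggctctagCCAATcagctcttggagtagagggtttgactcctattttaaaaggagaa
Cdca8: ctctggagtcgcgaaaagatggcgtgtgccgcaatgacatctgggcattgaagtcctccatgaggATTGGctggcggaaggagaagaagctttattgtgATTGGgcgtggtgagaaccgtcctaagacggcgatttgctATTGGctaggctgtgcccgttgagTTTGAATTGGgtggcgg
Cdk1: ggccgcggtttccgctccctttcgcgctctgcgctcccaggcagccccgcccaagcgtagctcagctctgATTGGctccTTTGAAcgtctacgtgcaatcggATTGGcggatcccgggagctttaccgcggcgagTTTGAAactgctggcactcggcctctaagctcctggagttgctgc
Bases are counted as negative before the annotated start and positive from it on, with no position 0. The CHR of Cdc20 begins at position -18 and lies between CCAAT boxes at -53 and -8. Ube2c has a reversed CHR at -29, after reversed CCAAT boxes at -88 and -57. In Plk1 and Aurka the CHR begins at positions 31 and 33, past the end of the stretch shown, and only their CCAAT boxes are in capitals here. In Cdca8 the CHR at position 14 overlaps a reversed CCAAT box at 19. Cdk1 holds CHR elements at -71 and -15. Over all member windows, 35.0% held a CHR in the first 25 bases after the start, the fullest of the bins of 25 bases.

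**Figure D3:**
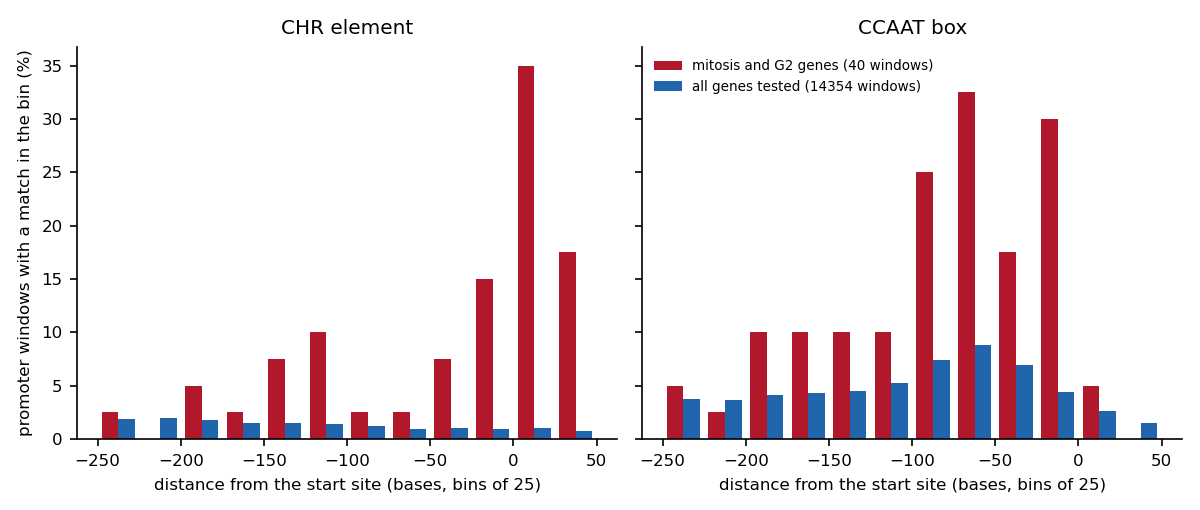
Share of promoter windows with a CHR element (left) or a CCAAT box (right) in each bin of 25 bases around the annotated start, for the 40 windows of the mitosis and G2 genes and the 14354 windows of genes tested. CHR elements of the mitotic genes gather around the start, with 35.0% of windows in the bin just after it, and CCAAT boxes gather before it.

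The comparison the study was set up for, shFabp7 against control partner, gave far smaller differences. At 48 h, 22 of the 47 genes rose beside the shFabp7 partner and 0 fell, where 19.9% of all genes tested were called higher and 11.6% lower (31.6% in either direction). The median log2 change of the 47 was 0.16, beside 0.01 over all genes tested, and the largest was 0.65. The shFabp7 and control libraries did not overlap, with shFabp7 higher, for 23 genes (25.7% of all genes tested) and with shFabp7 lower for 1, Ndc80 (18.4% of all genes). Calls fell unevenly over the roles: 3 of 3 in anaphase and exit, 2 of 2 transcription factors, 6 of 8 entry genes, 3 of 4 of the chromosome passenger complex and 4 of 6 of the midzone, but 2 of 7 spindle genes, 1 of 4 checkpoint genes, 1 of 6 of chromosome structure and 0 of 7 kinetochore genes. Whether roles differ was not tested. In the same libraries 5 of the 10 T cell markers were called lower beside the shFabp7 partner (Cd8a, Cd8b1, Cd3d, Cd3g and Cd247, from -0.23 to -0.13) and 1 higher (Cd5, 0.23 ± 0.05), Cd4 stood at -0.00 ± 0.05, and Pecam1 was lower at -0.23 ± 0.06 (adjusted p = 0.0024). Their part in the result was not tested.

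This count depends on the scaling. Upper-quartile factors and library totals each gave 13 (median log2 change 0.069 and 0.071), and they also turned the balance over all genes to 2125 higher and 3195 lower, and to 2157 and 3168, from 3380 and 1972 with TMM. Without shFabp7 48 h replicate 1 the count was 14. Cdc20, Ube2c, Plk1, Mybl2 and Aurka were called under each of the 21 alternatives tried, a minimum fold of 1.2 included, and 13 of the 22 kept their call whichever library was left out.

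Genes of anaphase and mitotic exit held the largest differences. Cdc20, the activator of the APC/C, had 104, 116 and 115 CPM at shFabp7 48 h, against 76.6, 72.2 and 65.7 CPM at control 48 h. All shFabp7 libraries were above all control libraries, and the log2 change was 0.65 ± 0.07 (1.57-fold, adjusted p = 6.5e-09). Ube2c, whose values stand above, rose by 0.64 ± 0.07 (1.56-fold, adjusted p = 1.8e-08). Pttg1 (securin, which the APC/C destroys to free separase) had 53.6, 51.4 and 49.2 CPM at shFabp7 48 h, against 41.1, 43.7 and 41.8 CPM at control 48 h. Again the groups did not overlap, with a log2 change of 0.28 ± 0.07 (adjusted p = 0.0019).

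Among the entry genes, Plk1, a kinase of mitotic entry and spindle assembly, had 80.2, 79.1 and 84.1 CPM at shFabp7 48 h, against 56.7, 53.4 and 47.2 CPM at control 48 h. Its log2 change was 0.63 ± 0.06 (1.55-fold, adjusted p = 3.7e-09), the lowest adjusted p of the 47. Aurka, the kinase of centrosome maturation, had 57.8, 63.5 and 62.5 CPM at shFabp7 48 h, against 42.5, 43.9 and 41.9 CPM at control 48 h, a log2 change of 0.52 ± 0.06 (adjusted p = 7.3e-08). Neither gene's groups overlapped. Cdk1, the kinase itself, had 128, 131 and 129 CPM at shFabp7 48 h, against 97.2, 112 and 105 CPM at control 48 h, and rose by 0.30 ± 0.07 (adjusted p = 0.00084). Its cyclins rose with it, Ccnb1 by 0.37 ± 0.06, Ccna2 by 0.27 ± 0.07 and Ccnb2 by 0.21 ± 0.07 (adjusted p = 1.1e-05, 0.0019 and 0.026). The phosphatases Cdc25b and Cdc25c stood at 0.07 ± 0.07 and -0.13 ± 0.12 and overlapped between partners. The Ccnb2 call was lost under 11 of the 21 alternatives.

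Both transcription factors rose. Mybl2 had 74.5, 74.4 and 74.6 CPM at shFabp7 48 h, against 54.3, 50.7 and 45.1 CPM at control 48 h (log2 change 0.57 ± 0.08, adjusted p = 1.2e-06). Foxm1 had 79.7, 78.0 and 79.1 CPM at shFabp7 48 h, against 72.2, 68.9 and 63.2 CPM at control 48 h (0.21 ± 0.06, adjusted p = 0.0046). In each case the 3 shFabp7 libraries lay close together above the 3 control libraries. The Foxm1 call was lost with upper-quartile factors, with library totals, with the minimum fold and without control 48 h replicate 3.

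In the chromosome passenger complex, which corrects faulty attachments, Incenp had 156, 154 and 155 CPM at shFabp7 48 h, against 135, 127 and 115 CPM at control 48 h. Cdca8 (borealin) had 81.1, 78.0 and 76.6 CPM at shFabp7 48 h, against 61.8, 61.3 and 59.5 CPM at control 48 h. The kinase Aurkb had 115, 111 and 106 CPM at shFabp7 48 h, against 98.0, 90.0 and 81.1 CPM at control 48 h. None of these 3 overlapped between partners, and they rose by 0.30 ± 0.06, 0.37 ± 0.07 and 0.31 ± 0.08 (adjusted p = 6.7e-05, 4.3e-05 and 0.0040). Birc5 (survivin), the fourth subunit, had 64.9, 67.5 and 64.4 CPM at shFabp7 48 h and 61.3, 64.6 and 57.2 CPM at control 48 h, which overlapped (0.10 ± 0.06, adjusted p = 0.22).

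At the kinetochore no gene passed the test, and the 7 log2 changes lay between -0.08 (Ndc80) and 0.09 (Cenpf). Cenpa had 103, 96.5 and 95.9 CPM at shFabp7 48 h and 90.8, 99.4 and 91.8 CPM at control 48 h. Spc24, of the Ndc80 complex that grips microtubules, had 33.1, 32.3 and 29.96 CPM at shFabp7 48 h and 30.8, 30.6 and 29.5 CPM at control 48 h. Both overlapped, with 95% intervals of the log2 change from -0.06 to 0.19 and from -0.09 to 0.23. Of the checkpoint genes, Bub1b (BubR1) had 120.3, 118 and 116 CPM at shFabp7 48 h, against 106, 107 and 95.4 CPM at control 48 h, and rose by 0.20 ± 0.08 (adjusted p = 0.049), a call lost under 14 of 21 alternatives. Mad2l1 (Mad2), at 78.0, 76.4 and 71.5 CPM at shFabp7 48 h and 62.5, 81.7 and 75.1 CPM at control 48 h, overlapped (0.04 ± 0.09, adjusted p = 0.76).

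The most used markers of proliferation did not pass. Mki67 stood at 0.07 ± 0.06 (adjusted p = 0.40, 95% interval -0.05 to 0.19) and Top2a at -0.01 ± 0.07 (adjusted p = 0.95, 95% interval -0.14 to 0.13) on the log2 scale, in the libraries whose values stand above. Of the condensin genes only Ncaph passed (0.17 ± 0.06, adjusted p = 0.022), a call lost under 13 of 21 alternatives. Of the spindle genes, Kif11, the motor that pushes the poles apart, had 129, 117 and 113 CPM at shFabp7 48 h and 105, 131 and 119.6 CPM at control 48 h (0.01 ± 0.09). Kif15, which shares that task, had 82.0, 79.4 and 68.5 CPM at shFabp7 48 h and 71.5, 88.5 and 75.8 CPM at control 48 h (-0.04 ± 0.07). In both the partners overlapped. Tpx2, the activator of Aurka on the spindle, had 145, 138 and 143 CPM at shFabp7 48 h, against 117, 136 and 130.1 CPM at control 48 h, and rose by 0.16 ± 0.06 (adjusted p = 0.036). Kif2c rose by 0.21 ± 0.07 (adjusted p = 0.028). These calls were lost under 17 and 11 of 21 alternatives.

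At the midzone, where the cleavage furrow is placed, Racgap1 of the centralspindlin complex had 102, 96.8 and 97.3 CPM at shFabp7 48 h, against 90.9, 88.2 and 85.6 CPM at control 48 h. Ect2, the exchange factor it recruits, had 49.8, 47.8 and 49.9 CPM at shFabp7 48 h, against 37.8, 45.2 and 43.9 CPM at control 48 h. In both the shFabp7 libraries lay above the control libraries, with log2 changes of 0.16 ± 0.05 and 0.22 ± 0.08 (adjusted p = 0.016 and 0.032), though the calls were lost under 10 and 12 of 21 alternatives. The motors Kif20a and Kif23 rose by 0.29 ± 0.07 and 0.22 ± 0.07 (adjusted p = 0.00075 and 0.014), and the Kif23 call was lost with upper-quartile factors, library totals, the minimum fold, and without control 48 h replicate 3 or shFabp7 48 h replicate 1. Prc1 and Anln did not pass (0.12 ± 0.08 and 0.21 ± 0.09).

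**Figure D4:**
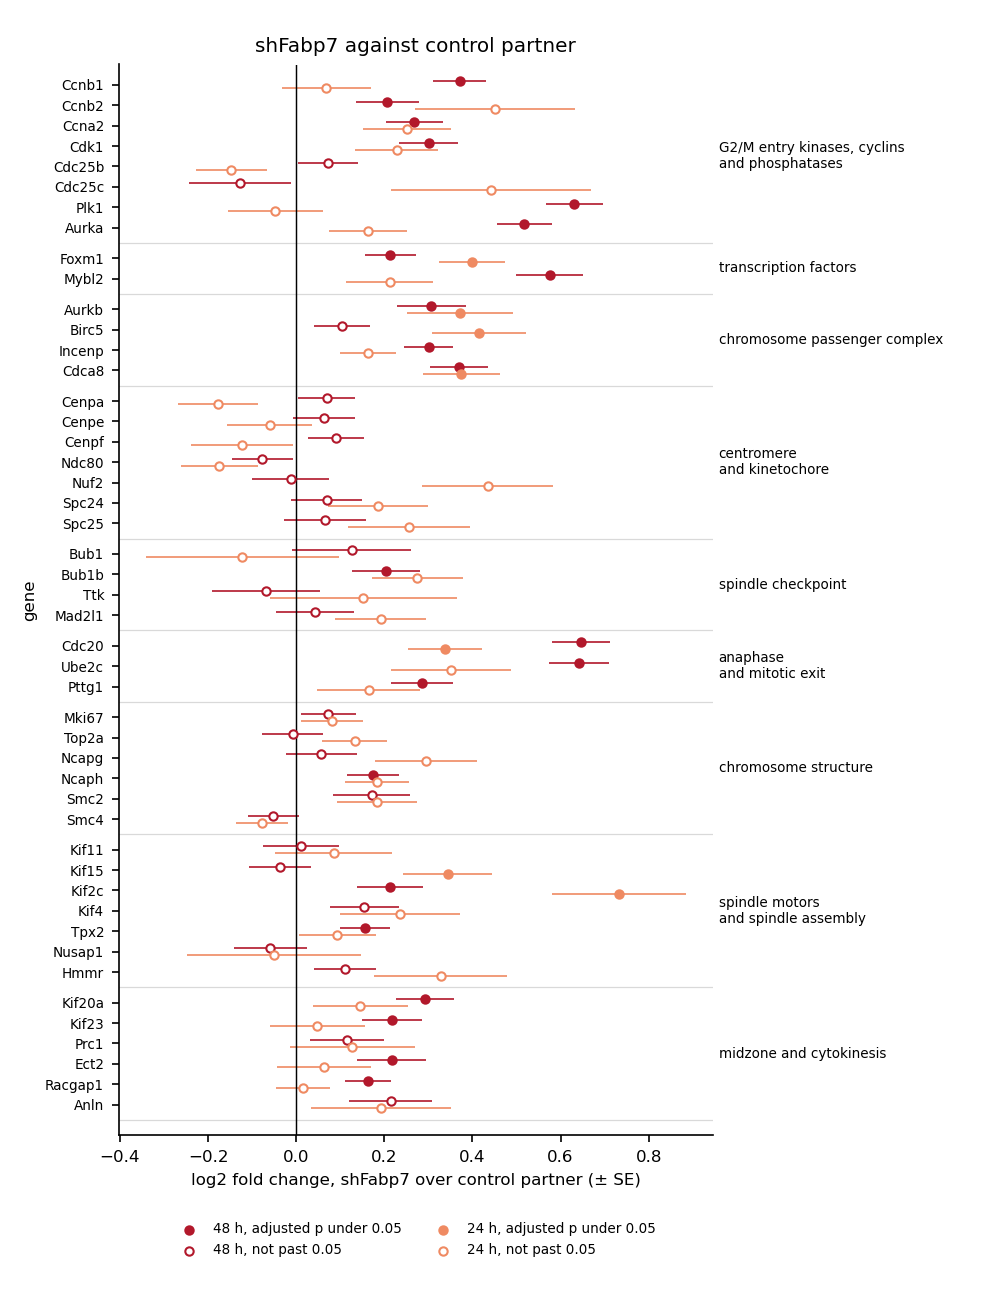
Log2 fold change of each gene, shFabp7 over control partner, with its standard error, at 48 h (dark) and 24 h (light), filled where the adjusted p is under 0.05. At 48 h the filled points reach 0.65 (Cdc20) and none belongs to the kinetochore group, and at 24 h 7 points are filled, up to Kif2c at 0.73.

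At 24 h, when each of the 47 genes stood below its 48 h level, 7 rose beside the shFabp7 partner and 0 fell. Beside this, 6.22% of all genes tested were called higher and 4.65% lower (10.9% in either direction). The 7 were Kif2c, Birc5, Foxm1, Cdca8, Aurkb, Kif15 and Cdc20. The median log2 change of the 47 was 0.18, beside 0.00 over all genes tested, and 38 of 47 values were positive. The groups did not overlap, with shFabp7 higher, for 11 genes (15.0% of all genes tested) and with shFabp7 lower for 1, Smc4 (12.5% of all genes). This count moved with single libraries and settings: it was 3 without shFabp7 24 h replicate 1, 12 without shFabp7 24 h replicate 3, 15 without control 24 h replicate 2, 16 with no filter on low counts and 16 with DESeq2. The shares of all genes called in these fits are not given here. Balance over all genes moved too, with 1054 higher and 788 lower calls under TMM, 1581 and 619 under RLE factors, 753 and 1035 under upper-quartile factors, and 604 and 1214 under library totals, where 9, 6 and 5 of the 47 were called higher. Of the T cell markers Cd5 was called higher (0.20 ± 0.05) and 0 lower, and Pecam1 was lower at -0.32 ± 0.06 (adjusted p = 0.00056), whose part was not tested either.

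Kif2c, with 3.62, 3.89 and 2.58 CPM at shFabp7 24 h against 2.24, 2.04 and 1.76 CPM at control 24 h, had the largest difference (0.73 ± 0.15, 1.66-fold, adjusted p = 0.0020). Foxm1 had 14.2, 15.7 and 14.4 CPM at shFabp7 24 h, against 11.1, 11.7 and 10.8 CPM at control 24 h (0.40 ± 0.08, adjusted p = 0.00084). Cdca8 had 13.6, 10.5 and 14.2 CPM at shFabp7 24 h, against 9.71, 10.4 and 9.39 CPM at control 24 h (0.38 ± 0.09, adjusted p = 0.0050). For these 3, every shFabp7 library was above every control library, narrowly so for Cdca8 replicate 2, and the call held whichever library was left out.

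The other calls at 24 h were less firm. Birc5 had 5.93, 4.96 and 4.93 CPM at shFabp7 24 h, against 3.84, 4.30 and 3.70 CPM at control 24 h (0.41 ± 0.11, adjusted p = 0.011). Cdc20 had 19.5, 18.04 and 15.3 CPM at shFabp7 24 h, against 13.2, 14.5 and 13.9 CPM at control 24 h (0.34 ± 0.08, adjusted p = 0.0080). Without shFabp7 24 h replicate 1 the adjusted p was 0.0734 for Birc5 and 0.0582 for Cdc20. Kif15 had 9.71, 9.69 and 9.13 CPM at shFabp7 24 h, against 6.92, 7.87 and 7.65 CPM at control 24 h (0.34 ± 0.10, adjusted p = 0.026). Aurkb had 10.5, 6.94 and 8.32 CPM at shFabp7 24 h, against 5.93, 6.94 and 7.03 CPM at control 24 h (0.37 ± 0.12, adjusted p = 0.049). Kif15 separated the partners, while the lowest shFabp7 value of Aurkb lay within the control range, and the Aurkb call was lost under 13 of 21 alternatives. Foxm1, Aurkb, Cdca8, Cdc20 and Kif2c were called at both times.

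Of the other genes with the largest differences at 48 h, none passed at 24 h. Plk1 had 4.58, 4.63 and 5.02 CPM at shFabp7 24 h and 4.95, 4.47 and 5.32 CPM at control 24 h (-0.05 ± 0.11). Aurka had 7.72, 7.88 and 7.18 CPM at shFabp7 24 h and 6.67, 7.22 and 6.43 CPM at control 24 h (0.16 ± 0.09). Both overlapped between partners, and so did Mybl2, with 14.9, 13.5 and 11.0 CPM at shFabp7 24 h and 12.8, 10.3 and 10.9 CPM at control 24 h (0.21 ± 0.10, adjusted p = 0.17). Ube2c, in the 24 h libraries whose values stand above, overlapped at 0.35 ± 0.14 (adjusted p = 0.093). The proliferation markers Mki67 and Top2a overlapped at 0.08 ± 0.07 and 0.13 ± 0.07 (adjusted p = 0.52 and 0.28).

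The remaining genes with values above showed this at 24 h. Cdk1 had 12.8, 13.7 and 10.5 CPM at shFabp7 24 h and 10.7, 11.7 and 9.05 CPM at control 24 h. Incenp had 37.2, 34.0 and 34.9 CPM at shFabp7 24 h and 29.6, 32.6 and 32.5 CPM at control 24 h. Pttg1 had 4.20, 5.10 and 4.21 CPM at shFabp7 24 h and 3.57, 4.71 and 3.70 CPM at control 24 h. Of these 3 only Incenp had every shFabp7 library above the controls, and none passed the test. At the kinetochore, Cenpa had 7.91, 9.86 and 10.6 CPM at shFabp7 24 h and 11.8, 10.5 and 9.87 CPM at control 24 h, and Spc24 had 6.12, 5.73 and 6.04 CPM at shFabp7 24 h and 6.21, 5.39 and 4.18 CPM at control 24 h. Of the checkpoint, Bub1b had 17.3, 14.5 and 11.9 CPM at shFabp7 24 h and 10.7, 13.4 and 11.9 CPM at control 24 h, and Mad2l1 had 24.6, 22.5 and 21.3 CPM at shFabp7 24 h and 20.8, 22.2 and 16.8 CPM at control 24 h. In all 4 the partners overlapped. Tpx2 had 9.71, 8.11 and 8.62 CPM at shFabp7 24 h and 8.45, 8.66 and 7.68 CPM at control 24 h, and Kif11 had 10.5, 8.01 and 7.12 CPM at shFabp7 24 h and 7.71, 8.74 and 7.65 CPM at control 24 h. Racgap1 had 23.6, 24.9 and 22.9 CPM at shFabp7 24 h and 24.0, 23.2 and 23.4 CPM at control 24 h, and Ect2 had 7.91, 9.05 and 7.54 CPM at shFabp7 24 h and 8.48, 8.58 and 6.37 CPM at control 24 h. These 4 overlapped as well, and Racgap1, at 0.02 ± 0.06, lay nearest to no difference of all 47.

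**Figure D5:**
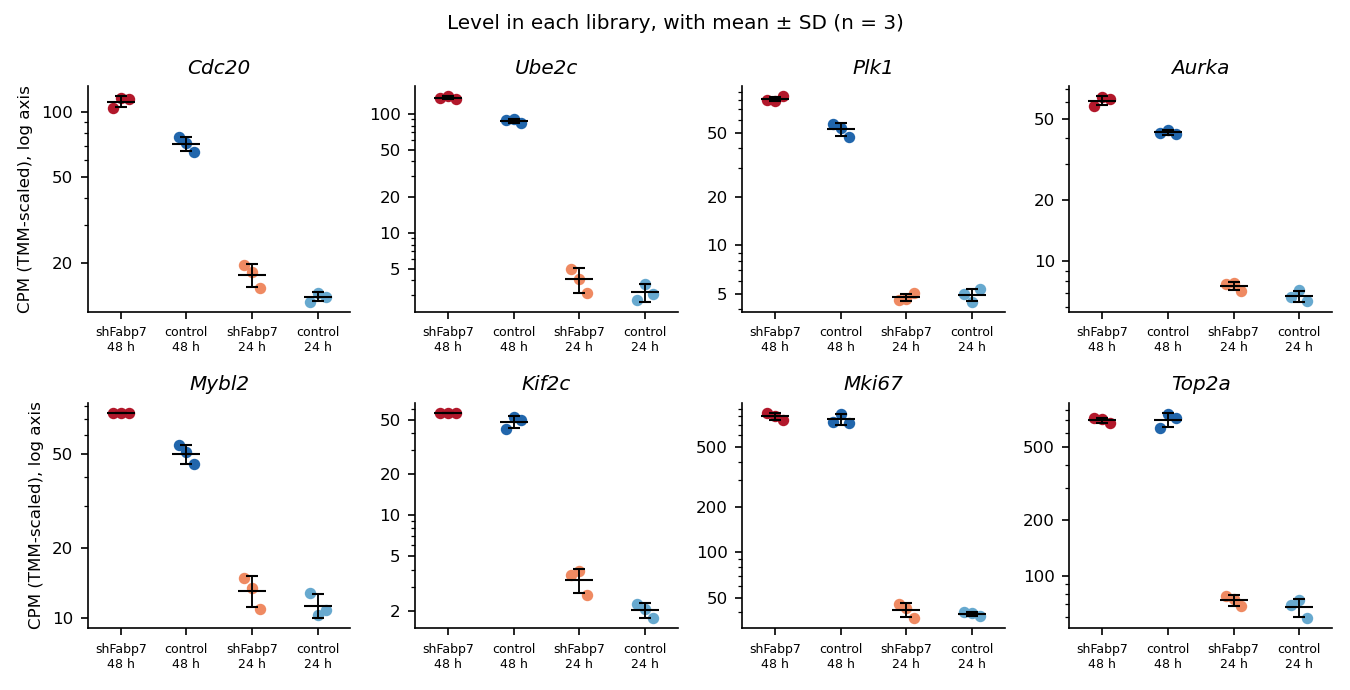
CPM in each library (points, log axis), with mean and SD of the 3 libraries, for 8 of the genes. Cdc20, Ube2c, Plk1, Aurka and Mybl2 separate the partners at 48 h, Kif2c separates them at both times, and Mki67 and Top2a overlap at both times.

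Whether the partner difference itself changed with time was tested as the 48 h effect minus the 24 h effect. For 2 of the 47 genes it was larger at 48 h and for 0 it was smaller, where 4.43% of all genes tested were called larger and 1.17% smaller (5.60% in all). The 2 were Plk1, at 0.68 ± 0.13 on the log2 scale (adjusted p = 0.0011), and Aurka, at 0.35 ± 0.11 (adjusted p = 0.047). Seen along time, Plk1 rose by 4.09 ± 0.08 with the shFabp7 partner and 3.42 ± 0.08 with the control partner, and Aurka by 3.01 ± 0.07 and 2.66 ± 0.08. Cdca8 and Mki67 lay nearest to no change of the difference, at -0.01 ± 0.11 (95% interval -0.22 to 0.20) and -0.01 ± 0.09 (95% interval -0.19 to 0.18). The median over the 47 was -0.01. Plk1 kept its call whichever library was left out, while the Aurka call was lost in 10 of those 12 fits, with an adjusted p of up to 0.271. Mybl2, Cdc20 and Ube2c stood at 0.36 ± 0.12, 0.31 ± 0.11 and 0.29 ± 0.15 (adjusted p = 0.089, 0.085 and 0.30), and Kif2c and Kif15 at -0.52 ± 0.17 and -0.38 ± 0.12 (adjusted p = 0.064 each). The 2 comparisons of partners use different libraries, and without control 48 h replicate 1 the counts were 4 larger and 3 smaller.

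Other genes of the pathway came from 7 lists of 198 symbols, of which 196 were tested. Over these lists 151 rose and 22 fell with the shFabp7 partner and 150 rose and 29 fell with the control partner, beside 35.9% and 35.8% of all genes called higher and 30.2% and 32.0% called lower. Of the other spindle, centrosome and cytokinesis genes 31 of 32 rose and 1 fell with either partner (median log2 change 2.05 with the shFabp7 partner and 2.18 with the control partner). Spag5 (astrin), a spindle protein, rose by 3.84 ± 0.09 and 3.68 ± 0.09. Of the inner kinetochore and checkpoint genes 27 of 33 rose and 1 fell with the shFabp7 partner and 26 rose and 4 fell with the control partner, and Kntc1 (Rod, which brings the checkpoint to kinetochores) rose by 3.04 ± 0.07 and 3.09 ± 0.07. Of the 20 APC/C and exit genes 9 rose and 2 fell with the shFabp7 partner and 10 rose and 5 fell with the control partner (medians 0.09 and 0.14), nearer to the shares over all genes than the other lists named so far, with separase (Espl1) at 3.83 ± 0.08 and 3.80 ± 0.08 and the APC/C inhibitor Fbxo5 at 2.20 ± 0.08 and 2.24 ± 0.08. The cohesin and condensin genes outside the 47 split, with 10 up and 7 down of 19 beside shFabp7 and 10 up and 8 down beside control. Of the DREAM, MuvB and E2F factors 13 and 12 of 19 rose and 4 fell with either partner, among them E2f8 by 3.21 ± 0.11 and 3.08 ± 0.12, and the repressor E2f4 was among those that fell, by 0.41 ± 0.05 and 0.62 ± 0.05. Of the entry regulators 18 of 23 tested rose and 3 fell with either partner, among them Cdca2, which steers a phosphatase to chromosomes, by 3.13 ± 0.09 and 3.25 ± 0.09.

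The DNA replication and S phase list, the step before mitosis, gives the contrast in timing. Of its 50 genes 43 rose and 4 fell with either partner, where 35.9% (shFabp7 partner) and 35.8% (control partner) of all genes were called higher and 30.2% and 32.0% lower, with median log2 changes of 0.66 with the shFabp7 partner and 0.54 with the control partner, beside 3.29 and 3.39 for the mitotic genes. Its summed level was 7407 ± 60.5 CPM at shFabp7 48 h, 6086 ± 191 CPM at control 48 h, 4854 ± 177 CPM at shFabp7 24 h and 4336 ± 231 CPM at control 24 h (SD, n = 3 each). The 47 mitotic genes summed to 5505 ± 185 CPM at shFabp7 48 h, 4985 ± 311 CPM at control 48 h, 826 ± 36.1 CPM at shFabp7 24 h and 779.9 ± 36.8 CPM at control 24 h. At 24 h the replication genes thus stood much nearer to their 48 h sum than the mitotic genes did.

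Between partners at 48 h, 33 of the 50 replication genes rose and 1 fell (median 0.22), led by Rrm2, a subunit of the enzyme that makes deoxynucleotides (0.60 ± 0.05), and the helicase subunit Mcm4 (0.49 ± 0.05). At 24 h 18 of them rose and 0 fell (median 0.14), with Rrm2 at 0.49 ± 0.07. Over the 7 lists together, 77 of 196 genes rose and 8 fell at 48 h, and 44 rose and 4 fell at 24 h. Gtse1, a microtubule-binding protein of G2, rose at either time (0.54 ± 0.06 at 48 h and 0.63 ± 0.06 at 24 h). Ube2s, which extends the ubiquitin chains that Ube2c begins, rose by 0.48 ± 0.06 at 48 h and 0.28 ± 0.06 at 24 h. In the kinetochore list outside the 47, 5 of 33 rose and 1 fell at 48 h, led by Mad1l1 and Bub3 (0.36 ± 0.07 and 0.25 ± 0.05). These counts stand beside 19.9% of all genes called higher and 11.6% lower at 48 h, and 6.22% higher and 4.65% lower at 24 h. The 5 of 33 kinetochore genes (15.2%) thus lay below the share of all genes called higher at 48 h.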

How the data were processed

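RNA-seq of T cells was analysed from the raw counts per gene symbol that the authors deposited for 12 libraries, whole numbers with no normalization. The submitters' processing notes name build GRCm39 and the tools HTSeq 0.6.1p1, TopHat2 2.0.13 and CASAVA 1.8.2. Not given in the sources used here are the strand mode and the annotation release; reads of a gene and an antisense or overlapping neighbour may therefore be mixed. Rows for pseudogenes or antisense partners of members (Ccnb1-ps, Ccnb2-ps, Smc2os, Kif4-ps) held at most 25 counts in a library.

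Genes were kept with filterByExpr (minimum count 10, minimum total 15), libraries were scaled with TMM, and 1 model with a coefficient per group was fitted to the 12 libraries with edgeR 4.0.16 in R 4.3.3 (robust quasi-likelihood test, contrasts between groups, Benjamini-Hochberg adjustment over 16945 genes, threshold 0.05). DESeq2 1.42.0, other scalings, filters, a fit of the compared groups alone, a minimum fold of 1.2, a replicate block and leaving out each library were the alternatives. The pipeline was tested on simulated data. Standard errors are the log2 change divided by the square root of F. No member was at 0 in any library; the lowest count was 19 (Cdc25c), and a count of 0 would allow up to 3 counts. Promoters come from RefSeq windows of GRCm38.p6 and lengths from GENCODE transcripts of GRCm38, matched by symbol; no coordinates of the 2 builds were mixed. The members and lists were chosen with earlier results of these data known. Values in every library are given for the members with the 2 highest levels per length of each role and for the largest and smallest changes of each comparison.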

Additional observations from a re-analysis of the deposited data

Results flagged for a closer look

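For 2 of the 47 genes the difference between partners itself differed between 48 and 24 h in edgeR's quasi-likelihood test of that difference. Over all genes tested 4.43% were called larger and 1.17% smaller (5.60% in either direction), so this count does not set the 47 apart. Plk1 stood at 0.68 ± 0.13 on the log2 scale (48 h effect minus 24 h effect, adjusted p = 0.0011), with shFabp7 above control in every 48 h library and overlapping groups at 24 h. Aurka stood at 0.35 ± 0.11 (adjusted p = 0.047), and its call was kept under 4 of 20 alternatives, against 19 of 20 for Plk1, whose call was lost with a minimum fold of 1.2 (adjusted p = 0.138).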

How the results depend on the processing

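All 47 rises with time kept their call under each alternative with either partner. Their median log2 change was 3.44 (shFabp7 partner) and 3.58 (control partner) with library totals, which shifted the median of all genes by 0.15 and 0.19 and gave 7483 higher and 3789 lower calls and 7746 and 3781, and 3.49 (control partner) with upper-quartile factors, which shifted it by 0.10; leaving out each library gave 3.19 to 3.35 and 3.30 to 3.45.

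At 48 h, 13 genes rose with upper-quartile factors and 13 with library totals (medians 0.069 and 0.071), and 5 with a minimum fold of 1.2. Leaving out each library gave 14 to 24 higher, 0 to 1 lower and medians of 0.11 to 0.20. At 24 h, 16 rose with no filter, 16 with DESeq2 and 0 with the minimum fold. At an unadjusted p under 0.05 there were 18. The shares of all genes called with no filter, DESeq2, the minimum fold or an unadjusted p are not given here. The 6.22% called higher at 24 h belongs to the main fit alone. Leaving out each library gave 3 to 15 higher, 0 to 1 lower and medians of 0.13 to 0.26. For the difference between partner effects, 1 gene was called larger with RLE factors, with upper-quartile factors, with library totals and with no filter, and 0 with the minimum fold. Smaller calls numbered 2 with upper-quartile factors (median -0.067), 3 with no filter, 2 with DESeq2 and 1 with a replicate block. Leaving out each library gave 1 to 4 larger, 0 to 3 smaller and medians of -0.079 to 0.065. Over all genes this difference had 750 larger and 199 smaller calls with TMM, 341 and 356 with upper-quartile factors and 446 and 275 with library totals. The cause was not tested.

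No pairing by replicate number was seen: deviations of libraries with the same number correlated between -0.097 and 0.025. Between libraries with different numbers the correlation reached 0.133. With 3 libraries a group this cannot settle whether the numbers mark shared cultures or mice. With the replicate block 22 members were called higher at 48 h and 8 at 24 h. No called member reversed under any alternative; values not called changed sign for 15 genes at 48 h, 10 at 24 h and 20 for the difference between partner effects. Anln at 48 h (0.21 ± 0.09) and Kif2c for the difference between partner effects (-0.52 ± 0.17) did not pass with 3 libraries a group. Whether more libraries would change this was not tested.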
